A study of Homo sapiens with 9 samples.

Results

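The genes described here are 46 components and targets of interferon signalling, chosen as a list of names that holds no IFIT and no HLA class I gene. They comprise the receptor chains, the receptor-bound kinases, the STAT and IRF transcription factors and the effector genes that interferon induces. Each gene was read by the probe set that carried its symbol alone and had the highest mean over 9 arrays, which gave values for 45 of the 46, out of 19775 genes read in the same way. STAT2 had no probe set named for it alone in the annotation used here and is not analysed here. Of the 45, 10 were receptor chains, kinases or IRF factors and 35 were effectors.

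RNA was measured on 9 expression arrays, in log2 units, in TC-71, a line from an Ewing sarcoma (a bone and soft tissue tumour driven by an EWSR1-ETS fusion, most often EWSR1-FLI1), and in derivatives made resistant to agents against the IGF-1 receptor. TC-71 itself, labelled as not resistant, had 3 samples with 1 array each. TC/AEW had been grown in rising amounts of NVP-AEW541, which blocks the tyrosine kinase of that receptor, up to 5 µM. TC/AVE had been taken up to 10 µg/ml of AVE1642, an antibody to the receptor. TC/CP had been grown with another antibody, figitumumab, whose highest concentration is not given in the sources used here. Selection lasted 6 months, all cells were kept in IMDM with 10% fetal bovine serum, and no label names interferon, a viral vector or a TC-71 culture passaged alongside. Resistance and time in culture thus cannot be told apart. Each resistant line is 1 sample, because its 2 arrays are technical replicates that were averaged. Its spread was taken from TC-71, except for the lines in common, where the spread among the 3 lines also entered. Values of the lines are given in the order TC/AEW, TC/AVE, TC/CP where no line is named. Whether the drug was still present at harvest is not given in the sources used here.

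Type I interferons bind a receptor made of IFNAR1 and IFNAR2, whose attached kinases TYK2 and JAK1 then activate STAT proteins. With IRF9 the STAT proteins form a complex that binds the interferon-stimulated response element (ISRE) and switches on antiviral genes, while IRF1, IRF3, IRF5 and IRF7 carry signals from nucleic acid sensors and other inputs. In most cells a low tonic level of these genes is kept without infection, and the amount of interferon-induced transcripts differs widely between tumour lines.

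In the resistant lines a few effectors stood above TC-71 and most of the list did not. ISG15, a ubiquitin-like protein conjugated to other proteins, and IFITM3, a membrane protein that blocks entry of enveloped viruses, were at least 2-fold higher in all 3 lines against the mean of the TC-71 samples, though not against the TC-71 sample of each line's own array set. LGALS3BP, a secreted glycoprotein that binds galectins, was 3.71-fold higher in TC/AEW and 4.33-fold in TC/AVE. IFI16, a nuclear DNA sensor, was above background in TC/AEW only among the 4 groups. The receptor chains and JAK1 differed from TC-71 by at most 0.37 on the log2 scale in every line by the probe sets read, and by more in some of their other probe sets. No member passed an adjusted p of 0.05 in any comparison by limma, so the differences below are sizes with their standard errors, not calls.

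**Figure D1:**
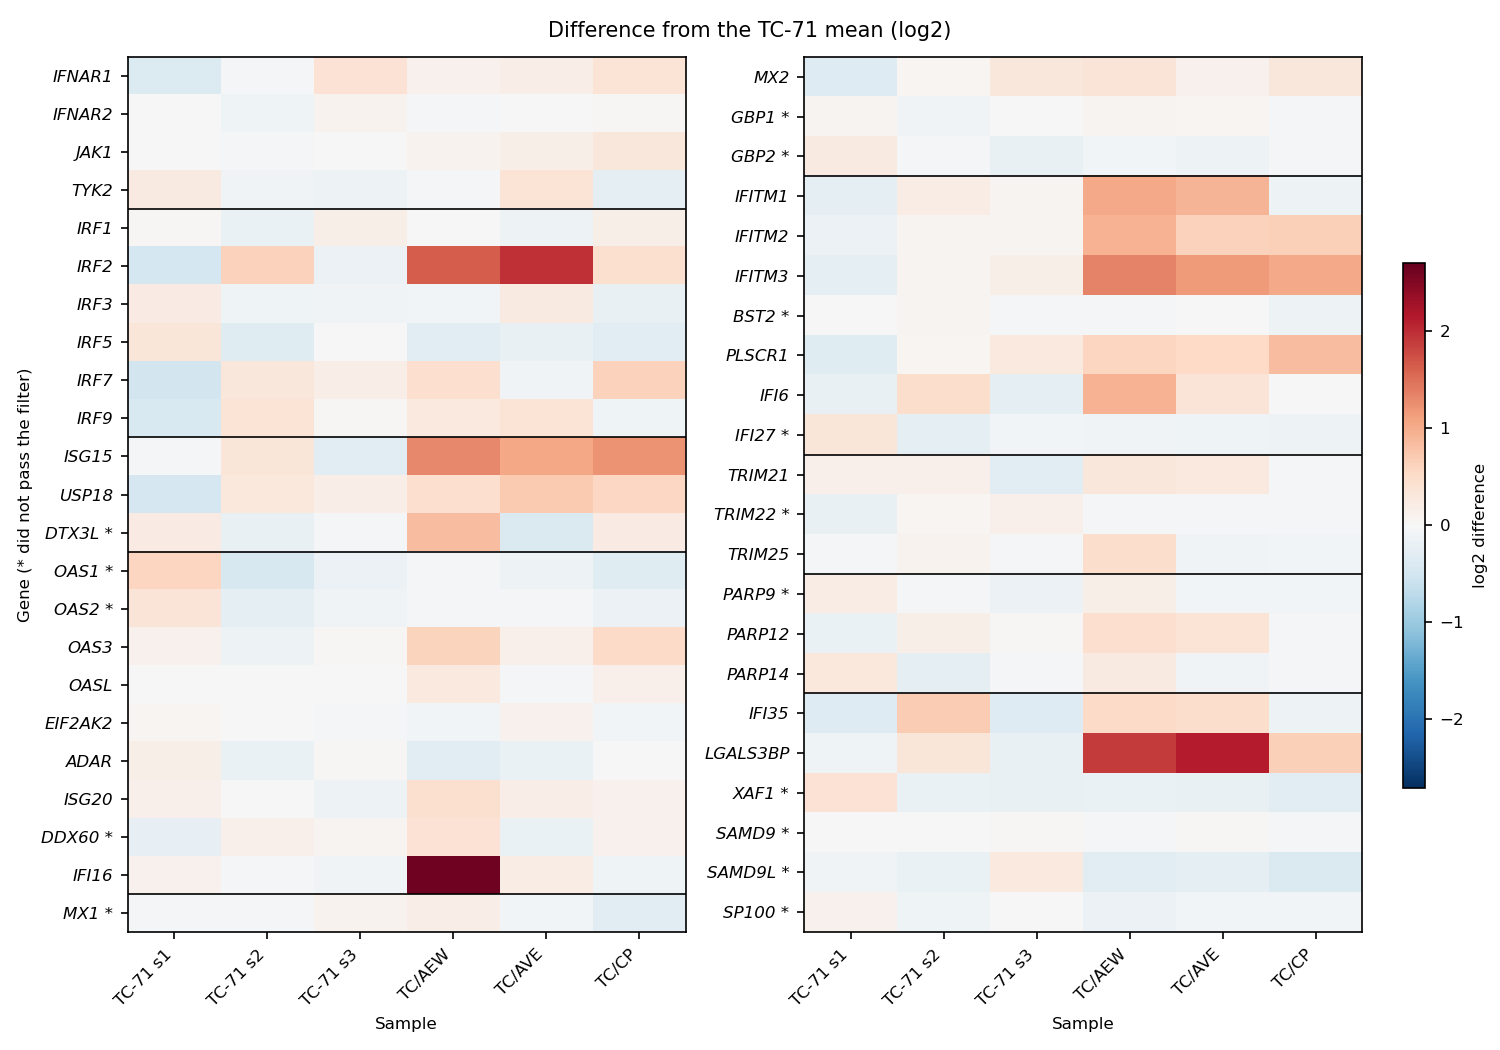
Difference of each TC-71 sample (s1 to s3) and each resistant line from the TC-71 mean, on the log2 scale, for the 45 genes read; colour gives the difference, black lines part the functional groups and an asterisk marks the 15 genes that did not pass the filter on low values. ISG15, IFITM2, IFITM3, LGALS3BP and PLSCR1 are red in all 3 lines, IFI16 in TC/AEW, and IRF2 most in TC/AEW and TC/AVE.

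Of the 45 genes, 28 were higher and 17 lower in the lines in common, with a median log2 difference of 0.11 against -0.02 over all 19775 genes. At least 2-fold higher were 4 (LGALS3BP, IRF2, ISG15 and IFITM3), beside 0.779% of all genes read, and 0 were at least 2-fold lower, beside 0.354%. Every array of the lines lay above every TC-71 array in 7 (JAK1, ISG15, USP18, IFITM2, IFITM3, PLSCR1 and LGALS3BP), where 3.96% of all genes did, and below in 1, where 3.64% did. Over all genes tested, limma called 0% higher and 0.0212% lower in this comparison. Of the 30 members that passed the filter and were tested, 8 had an unadjusted p under 0.05, all higher. Of all genes tested, 5.14% were higher and 3.25% lower with such a p. The lowest adjusted p among the members was 0.157, for IFITM3.

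By line, TC/AEW held the most of these differences. At least 2-fold higher were 6 members in TC/AEW (1.27% of all genes read), 4 in TC/AVE (1.41%) and 2 in TC/CP (1.75%). At least 2-fold lower were 0 in each line, beside 0.334%, 1.25% and 0.556% of all genes read. The median over the 45 was 0.25 in TC/AEW, 0.05 in TC/AVE and -0.05 in TC/CP, beside -0.01, -0.03 and -0.03 over all genes read. Arrays of the line lay above all TC-71 arrays in 20 members in TC/AEW (13.1% of all genes read), in 13 in TC/AVE (15.4%) and in 9 in TC/CP (16.5%). They lay below in 3 (12.5%), 4 (17.1%) and 5 (15.6%). The 3 comparisons share the TC-71 samples, and they are given here side by side, not as independent counts. The limma test called 0 of the 30 members tested in each line. An unadjusted p under 0.05 was reached by 9, 6 and 4 of them, all higher, beside 2.23%, 3.36% and 3.47% of the genes tested. Lower with such a p were 0 members in each line, beside 1.29%, 3.87% and 1.46%. The counts of higher members include IRF2 in common, in TC/AEW and in TC/AVE, and IFI16 in TC/AEW. Both genes passed the filter only through the lines where they are high, so their p-values support nothing.

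The receptor chains, the first step of the pathway, stood close to TC-71. IFNAR1 read 6.17, 6.51 and 6.92 in the 3 TC-71 samples, 6.65 and 6.66 on the TC/AEW arrays, 6.72 and 6.70 on those of TC/AVE and 6.86 and 6.95 on those of TC/CP. The TC-71 samples thus spanned nearly all the line values. IFNAR2 read 8.25, 8.13 and 8.32 in TC-71 and between 8.15 and 8.28 in the lines. Its TC-71 samples and lines overlapped throughout, and its difference in the lines in common was -0.01 ± 0.12 (SE). Another of its 3 probe sets placed TC/CP, at 7.28 and 7.29, above TC-71, at 6.86, 6.24 and 7.03, and the last differed by 0.37 in TC/CP. Of the 4 probe sets of IFNAR1, the one with the lowest signal differed by 0.51 in TC/AEW, where TC-71 was under 5.

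JAK1, which phosphorylates the receptor's tail and the STAT proteins, read 12.66, 12.61 and 12.65 in TC-71. On the arrays of the 3 lines it read 12.74 and 12.71, 12.74 and 12.84, and 12.95 and 12.95. Every line array stood above TC-71, but by only 0.18 ± 0.12 in the lines in common (adjusted p = 0.761). The gene had 5 probe sets and they disagreed. In 1 of them TC/CP stood below the TC-71 mean (log2 difference -0.61) while TC/AEW and TC/AVE stood 0.63 and 0.65 above it. There TC-71 sample 3, of the same array set as TC/CP, read 9.36 against 10.41 and 10.60 in the other TC-71 samples. TC/CP, at 9.49 and 9.53, lay above that sample. TC/AEW and TC/AVE, between 10.73 and 10.80, lay above TC-71 sample 2 of their own set, at 10.60.

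TYK2, the kinase bound to IFNAR1, read 9.21, 8.87 and 8.84 in TC-71. TC/AVE lay above these at 9.32 and 9.36 and TC/CP below them at 8.73 and 8.70, while TC/AEW overlapped them at 8.90 and 9.01. The difference between TC/AVE and TC/CP was 0.63 ± 0.31 (adjusted p = 0.953).

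**Figure D2:**
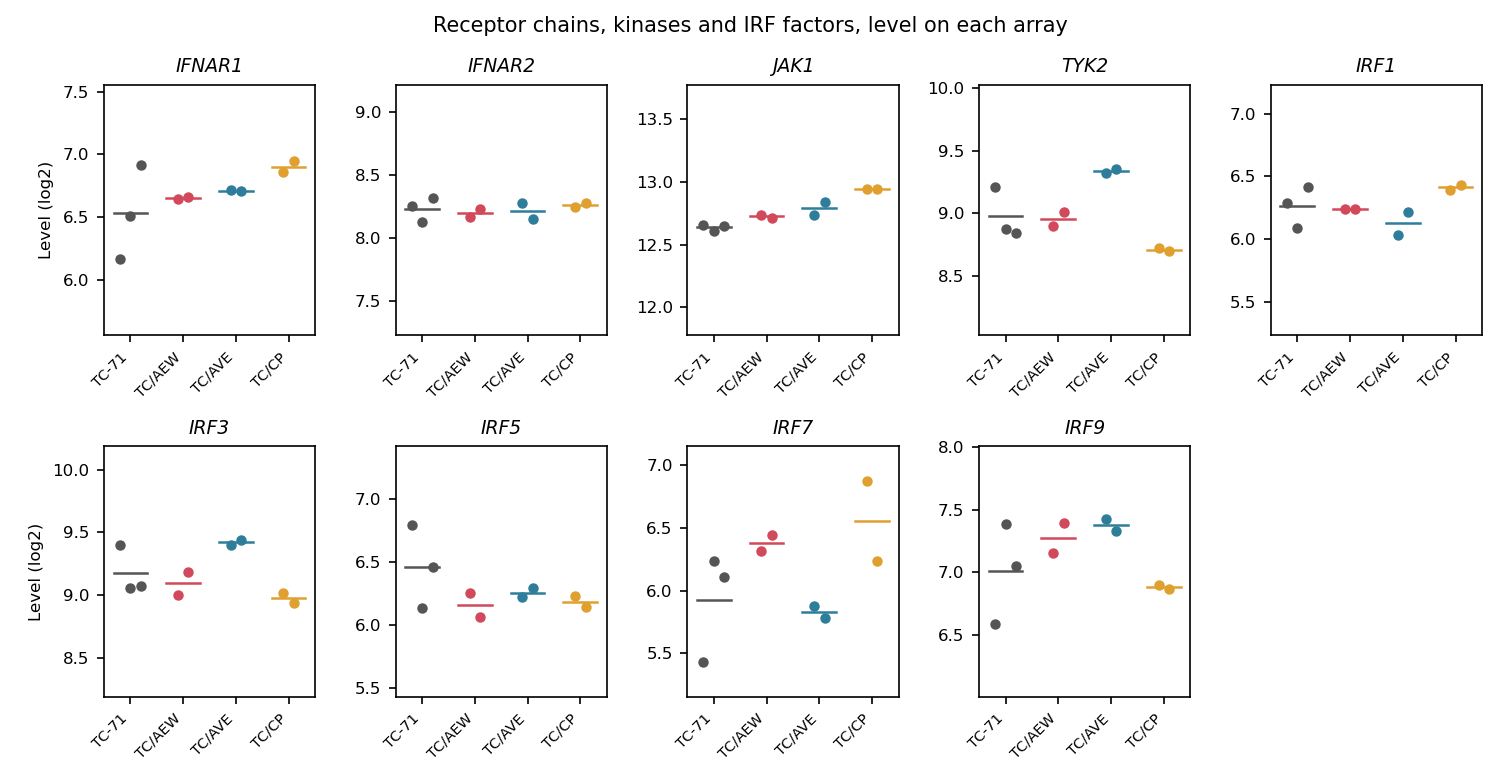
Level on each array (log2, points; bars are group means) of the 2 receptor chains, the 2 kinases and 5 of the 6 IRF factors read, in TC-71 (3 samples) and the 3 lines (2 technical replicate arrays each). Each panel spans at least 2 log2 units, and the TC-71 points overlap those of at least 1 line in every gene shown except JAK1.

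Among the IRF factors, IRF2 was the gene that stood apart. IRF2 competes with IRF1 for the same DNA element and can hold interferon-induced genes down. It read 3.20, 4.29 and 3.50 in TC-71, 5.23 and 5.37 in TC/AEW, 5.65 and 5.61 in TC/AVE, and 4.45 and 3.74 in TC/CP. The arrays of TC/AEW and TC/AVE lay above all TC-71 arrays and those of TC/CP did not. A level under 5 on this scale, the minimum used to keep a probe set in the tests, is treated here as near background, so the differences of TC/AEW and TC/AVE from TC-71, at least 1.63 ± 0.46 and at least 1.96 ± 0.46, are lower bounds and are given no fold (adjusted p = 1.00 and 0.509). Measured against TC-71 sample 2, which belongs to the same array set as these lines and is the highest TC-71 sample for this gene, they were 1.01 and 1.34. IRF2 passed the filter through those lines alone.

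The other IRF factors stayed within the range of TC-71 or close to it. IRF9, the DNA-binding partner of the STAT proteins, read 6.59, 7.39 and 7.05 in TC-71, and 7.16 and 7.39, 7.42 and 7.33, and 6.90 and 6.87 in the 3 lines. IRF7, which amplifies interferon production, read 5.44, 6.23 and 6.11 in TC-71, 6.32 and 6.44 in TC/AEW, 5.88 and 5.78 in TC/AVE and 6.87 and 6.23 in TC/CP. Only the TC/AEW arrays cleared all TC-71 values for IRF7, and by less than the gap between TC-71 samples.

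IRF1, itself induced by interferon gamma, read 6.29, 6.09 and 6.41 in TC-71 and between 6.03 and 6.43 in the lines. IRF3, the factor activated by cytosolic DNA and RNA sensing, read 9.40, 9.06 and 9.07 in TC-71 and between 8.94 and 9.44 in the lines. IRF5, which acts downstream of Toll-like receptors, read 6.79, 6.13 and 6.46 in TC-71 and between 6.06 and 6.29 in the lines. In these 3 genes the lines and TC-71 overlapped, apart from the TC/CP arrays of IRF3 (9.01 and 8.94), which lay below. Over all 10 receptor, kinase and factor genes the adjusted p in the lines in common ran from 0.483 to 0.998.

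Of the ISG15 system, ISG15 itself read 9.53, 9.91 and 9.28 in TC-71. It read 10.73 and 11.02 in TC/AEW, 10.60 and 10.65 in TC/AVE and 10.80 and 10.77 in TC/CP. All 6 line arrays lay above all 3 TC-71 arrays and the lines lay close together. The difference in the lines in common was 1.19 ± 0.18 (2.28-fold, adjusted p = 0.186 by limma), and 2.47-fold, 2.07-fold and 2.32-fold in the 3 lines.

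USP18, the protease that removes ISG15 and also blocks IFNAR2, read 6.69, 7.43 and 7.32 in TC-71, and 7.47 and 7.73, 7.75 and 7.95, and 7.75 and 7.65 in the 3 lines. The line arrays lay above TC-71, the lowest of them by 0.04 over TC-71 sample 2. The difference in common was 0.57 ± 0.21 (1.49-fold, adjusted p = 0.545). DTX3L, a ubiquitin ligase that pairs with PARP9, stayed under 5 on every array.

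The IFITM proteins sit in plasma and endosomal membranes and restrict the fusion of viruses. IFITM3 read 9.50, 9.80 and 9.89 in TC-71, 11.01 and 11.14 in TC/AEW, 10.89 and 10.85 in TC/AVE, and 10.74 and 10.75 in TC/CP. All line arrays lay above TC-71, in a difference of 1.17 ± 0.16 (2.25-fold). IFITM2 read 9.87, 10.11 and 10.10 in TC-71 and between 10.56 and 10.97 in the lines (0.73 ± 0.15 higher in common, 1.66-fold, adjusted p = 0.239).

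IFITM1 did not follow in TC/CP. It read 9.09, 9.57 and 9.43 in TC-71, 10.31 and 10.45 in TC/AEW, and 10.25 and 10.32 in TC/AVE, but 9.30 and 9.15 in TC/CP. The TC/CP arrays lay inside the TC-71 range, and the difference of TC/AVE from TC/CP was 1.06 ± 0.33 (2.09-fold, adjusted p = 0.738). The probe sets of IFITM2 and IFITM3 are of the _x_at kind, which can bind transcripts of near-identical genes, and each of the 3 genes had 1 probe set, so the split of signal between these paralogs is uncertain.

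LGALS3BP read 7.74, 8.19 and 7.66 in TC-71. It read 9.62 and 9.89 in TC/AEW, 9.97 and 9.98 in TC/AVE, and 8.41 and 8.59 in TC/CP. All line arrays lay above TC-71, those of TC/CP by the least. The differences were 1.89 ± 0.29 in TC/AEW (adjusted p = 0.734), 2.11 ± 0.29 in TC/AVE (adjusted p = 0.240) and 0.64 ± 0.29 in TC/CP (1.55-fold, adjusted p = 0.998).

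IFI16 read 3.98, 3.84 and 3.77 in TC-71 and 6.47 and 6.53 in TC/AEW. TC/AVE, at 4.22 and 3.92, and TC/CP, at 3.71 and 3.77, stayed near background like TC-71. The difference in TC/AEW, at least 2.63 ± 0.21, was the largest in size among the 45 genes in any line, with an adjusted p of 0.641. The gene's other 2 probe sets differed in the same direction, by 2.55 and 1.88 in TC/AEW, and by 0.11 or less in size in TC/AVE. TC/AEW stood 2.59 ± 0.23 above the mean of TC/AVE and TC/CP (adjusted p = 0.575), also a lower bound. IFI16 passed the filter through TC/AEW alone.

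**Figure D3:**
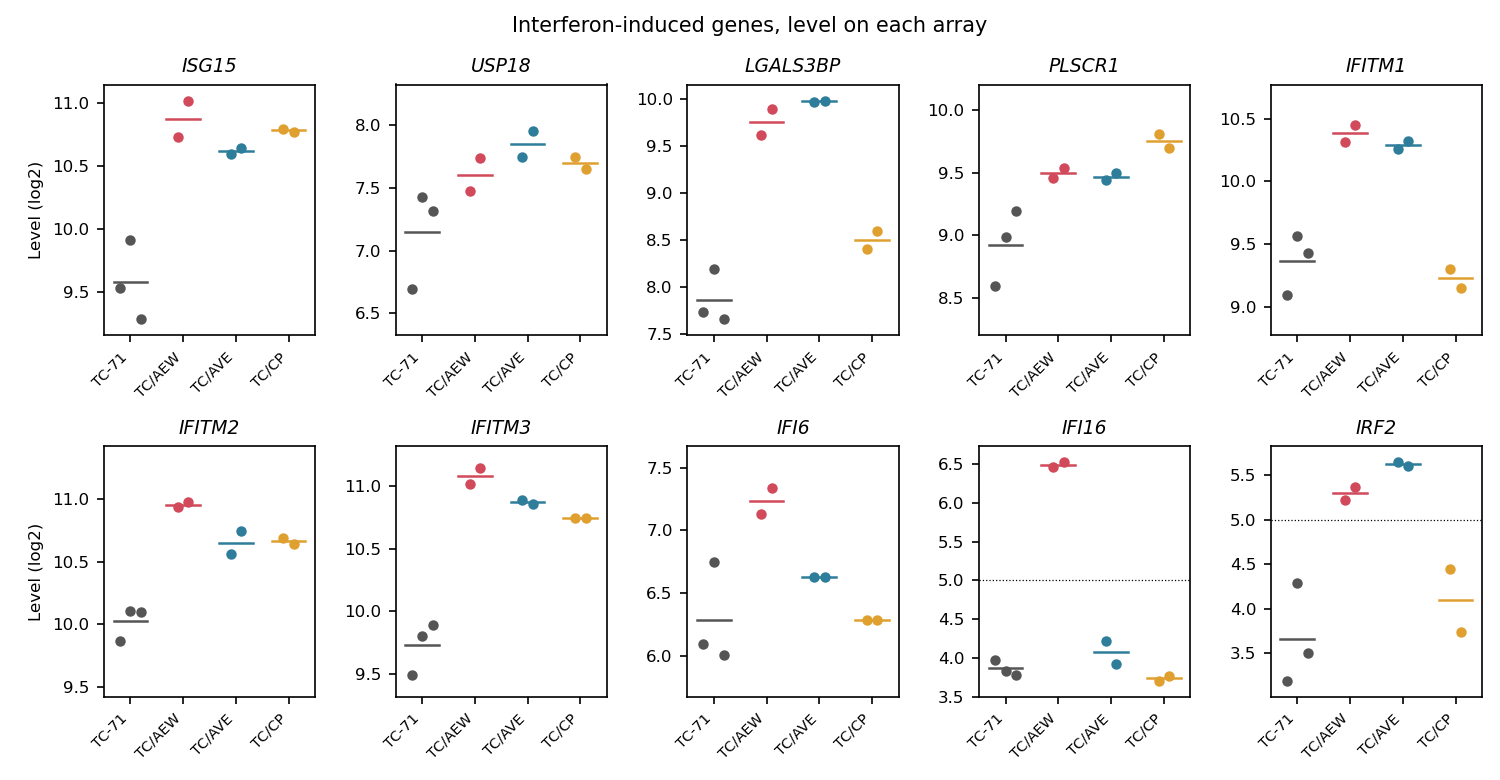
Level on each array (log2, points; bars are group means) of 9 effectors and IRF2 in TC-71 (3 samples) and the 3 lines (2 technical replicate arrays each); the dotted line marks 5, the level taken as near background. The 6 line arrays lie above the 3 TC-71 arrays for ISG15, USP18, LGALS3BP, PLSCR1, IFITM2 and IFITM3, those of TC/CP fall among TC-71 for IFITM1, and only those of TC/AEW leave background for IFI16.

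A few further effectors are named because their arrays separated, and were chosen after their values were seen, as were IFITM2 and USP18. PLSCR1, a scramblase of membrane phospholipids, read 8.60, 8.99 and 9.19 in TC-71, 9.46 and 9.54 in TC/AEW, 9.44 and 9.49 in TC/AVE, and 9.81 and 9.70 in TC/CP. The line arrays lay above TC-71 (0.65 ± 0.18 in common, 1.56-fold, adjusted p = 0.410). IFI6, a mitochondrial protein that delays apoptosis, read 6.09, 6.75 and 6.01 in TC-71, 7.13 and 7.33 in TC/AEW, 6.62 on each TC/AVE array, and 6.28 and 6.29 in TC/CP. The arrays of TC/AEW alone lay above TC-71 (0.95 ± 0.36, 1.93-fold, adjusted p = 1.00). TRIM25, the ubiquitin ligase that activates RIG-I, read between 9.04 and 9.17 in TC-71, 9.52 and 9.59 in TC/AEW and between 8.99 and 9.05 in the other lines. Its other probe set disagreed, with 6.88, 7.16 and 6.59 in TC-71. There TC/AEW, at 7.28 and 7.14, overlapped TC-71, and TC/CP, at 6.36 and 6.49, lay below it. OAS3, which makes the 2-5A messenger that activates RNase L, read between 5.36 and 5.60 in TC-71, 6.05 and 6.15 in TC/AEW, 5.59 and 5.66 in TC/AVE, and 5.90 and 6.12 in TC/CP. Its other probe set, near background on every array, disagreed. There TC/CP, at 4.21 and 4.10, lay below TC-71, at 4.33, 4.35 and 4.33, and TC/AEW and TC/AVE differed by -0.08 and 0.05.

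Many effectors often used to read an interferon response were near background everywhere. Under 5 on all 9 arrays were 14 of the 35 effectors, between 2.81 and 4.94: DTX3L, OAS2, DDX60, MX1, GBP1, GBP2, BST2, IFI27, TRIM22, PARP9, XAF1, SAMD9, SAMD9L and SP100. OAS1 reached 5.05 in TC-71 sample 1 and at most 4.55 elsewhere, so that 15 members in all did not pass the filter and 30 were tested. MX1, the GTPase that traps viral nucleocapsids, read 3.87, 3.83 and 3.98 in TC-71 and between 3.40 and 4.30 in the lines. BST2, which tethers budding virions, read 4.59, 4.66 and 4.53 in TC-71 and between 4.40 and 4.62 in the lines. A change below the range that these probe sets can read was not detectable. SAMD9L was the member whose line arrays (3.77 to 3.99) all lay below TC-71 (4.02 to 4.48) by the probe set read. Another of its 3 probe sets differed by -0.01, -0.05 and 0.03 in the 3 lines, and the last by 0.09, 0.19 and 0.15. All were near background.

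Of the other effectors that passed the filter, PARP12 and TRIM21 lay above all TC-71 arrays in TC/AEW, by 0.45 and 0.30, and in TC/AVE, by 0.38 and 0.26. ISG20, under 5 in TC-71, lay above it in TC/AEW by at least 0.44. MX2 and PARP14, near 5, overlapped TC-71 in every line. Others read above background and stayed near TC-71 by the probe sets read. EIF2AK2 (PKR), the kinase that stops translation on double-stranded RNA, differed by -0.01 ± 0.12 in the lines in common. Of its 3 probe sets, the one with the lowest signal read 5.39, 5.36 and 5.26 in TC-71. There TC/AVE lay above, at 5.67 and 6.24, and TC/CP below, at 4.96 and 4.89. Another differed by 0.32 in TC/AVE. ADAR, which edits double-stranded RNA, differed by -0.17 ± 0.15. OASL, an OAS relative without synthetase activity, differed by 0.12 ± 0.13, but its probe sets disagreed. The other one read 4.95, 4.34 and 4.47 in TC-71, near background, and stood above all of these at 5.22 and 5.16 in TC/AEW and 5.52 and 5.48 in TC/CP. IFI35, a partner of NMI, had the widest TC-71 spread among members that passed the filter, an SD of 0.60 with 5.85, 6.89 and 5.86 in the samples, and its lines read between 6.01 and 6.76. The median SD over those 30 members was 0.22, and the 2 technical arrays of a line differed among them by at most 0.71 (IRF2 in TC/CP).

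Promoter sequence is shown for members on either side of this divide, since the ISRE is the element that the complex of IRF9 and STAT proteins binds at antiviral genes. Sequences are from RefSeq on GRCh38.p14, in windows from 250 bases before to 50 after a start site, and 35 of the 46 genes had at least 1 window (51 in all). The letters searched, on both strands, were GAAA NN GAAA (ISRE core, N being any base), GAAA NN GAAACT (the same element extended, so every extended match is also a core match) and TTC NNN GAA (the STAT-binding GAS element). The core was in 20 of the 35 genes (57.1%), against 4.38% of all 27305 genes with a window and 3.57% of all 35116 windows. The extended element was in 11 (31.4%), against 0.322% of all genes and 0.273% of windows, and GAS letters in 11, against 9.38% and 7.66%. A match describes letters only, and no binding was measured.

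Stretches of 60 bases follow, upstream of the start site and 5′ to 3′ on the gene's strand, with 1 match in capitals, first for members that were higher in 1 or more lines. They were chosen after the levels were seen. The stretches of ISG15, IFITM3, IFI6, BST2 and IFI27 each hold 2 matches to the core, of which 1 is not marked, and in ISG15 and BST2 the matches overlap.

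ISG15, chr1:1013366-1013425, plus strand: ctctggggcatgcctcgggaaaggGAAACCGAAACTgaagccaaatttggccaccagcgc

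IFITM3, chr11:320877-320936, minus strand: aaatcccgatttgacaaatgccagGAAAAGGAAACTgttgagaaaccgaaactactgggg

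IFITM1, chr11:313976-314035, plus strand: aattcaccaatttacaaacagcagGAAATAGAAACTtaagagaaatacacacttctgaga

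IFI6, chr1:27672272-27672331, minus strand: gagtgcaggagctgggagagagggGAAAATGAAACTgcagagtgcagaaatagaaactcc

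LGALS3BP, chr17:78979947-78980006, minus strand, core only: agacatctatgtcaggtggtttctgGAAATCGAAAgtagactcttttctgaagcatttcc

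PLSCR1, chr3:146544652-146544711, minus strand, core only: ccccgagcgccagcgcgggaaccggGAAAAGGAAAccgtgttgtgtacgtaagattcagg

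The next are from members that stayed near background on every array and hold the same element.

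BST2, chr19:17405725-17405784, minus strand: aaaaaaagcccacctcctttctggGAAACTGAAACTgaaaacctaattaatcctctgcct

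IFI27, chr14:94110602-94110661, plus strand, with the match in capitals on the opposite strand and the other on this one: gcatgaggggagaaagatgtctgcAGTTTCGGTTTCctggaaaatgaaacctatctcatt

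DDX60, chr4:168318770-168318829, minus strand: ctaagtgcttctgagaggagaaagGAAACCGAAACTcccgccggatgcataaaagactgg

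The extended element thus occurred both in genes that stood higher in the lines (ISG15, IFITM1, IFITM3) and in genes that read near background in all 4 groups (BST2, IFI27, DDX60, MX1, PARP9 and DTX3L). ISG15, well above background, and DDX60, near background, carry the same letters, GAAACCGAAACT. EIF2AK2 and IFI6 hold the extended element too, and PARP9 and DTX3L, whose windows overlap, share 1 stretch of sequence.

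The lines were also set against each other, to see whether the kind of agent went with the level. TC/AEW was at least 2-fold above the mean of the antibody lines in 1 member, IFI16 (0.733% of all genes read), and its arrays lay above those of both antibody lines in 9 members (11.3%) and below in 2 (10.7%). The median of the 45 differences was 0.14, against 0.01 over all genes read. TC/AVE was at least 2-fold above TC/CP in 3 members, IRF2, IFITM1 and LGALS3BP (1.07% of all genes read), with differences of at least 1.53 ± 0.56 (IRF2 is near background in TC/CP), 1.06 ± 0.33 and 1.48 ± 0.36. It was at least 2-fold below in 0 (2.35%), as was TC/AEW against the antibody lines (0.217%). Arrays of TC/AVE and TC/CP did not overlap in 26 of the 45, 15 higher and 11 lower, beside 29.4% and 31% of all genes read. Neither comparison had a member past the threshold, with the lowest adjusted p at 0.575 and 0.566, and 1 and 3 members had an unadjusted p under 0.05, all higher. The 1 is IFI16 and the 3 include IRF2, whose p-values carry the same limit of the filter as above. Of the genes tested, 1.22% and 1.98% were higher with such a p, and 0.593% and 3.8% lower. The concentrations of the agents differ in unit and kind, so the lines are compared as lines and not by dose.

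TC/AEW and TC/AVE belong to 1 array set with TC-71 sample 2, and TC/CP to another with TC-71 sample 3, by the year in their file labels, while TC-71 sample 1 is alone in its set. Against the TC-71 sample of its own set, ISG15 was 0.97, 0.71 and 1.50 higher in the 3 lines, IFITM3 1.28, 1.07 and 0.85, and LGALS3BP 1.56, 1.78 and 0.84. Under this reference 0 members were at least 2-fold higher in all 3 lines. All 7 members whose line arrays lay above every TC-71 array are higher in each line under this reference by the way they were picked, so this is no further check. IFI16 in TC/AEW was at least 2.66 higher. The sign of the difference turned with the reference in 10 of the 45 members in TC/AEW, 11 in TC/AVE and 7 in TC/CP. IFI35 turned in all 3 lines, from 0.52, 0.48 and -0.13 against all TC-71 samples to -0.18, -0.22 and 0.21 within the set. IRF9 turned from 0.26 to -0.11 in TC/AEW, and IFI6 from 0.34 to -0.12 in TC/AVE. With the set as a block, the differences of TC/AVE from TC/CP were 0.75 for IRF2, 0.93 for IFITM1 and 0.94 for LGALS3BP. By these values 0 members stayed at least 2-fold apart. IRF2 read near background in TC/CP and TC-71, so its value is neither a lower bound nor a measured size. The part of the array set in these differences was not tested further.

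**Figure D4:**
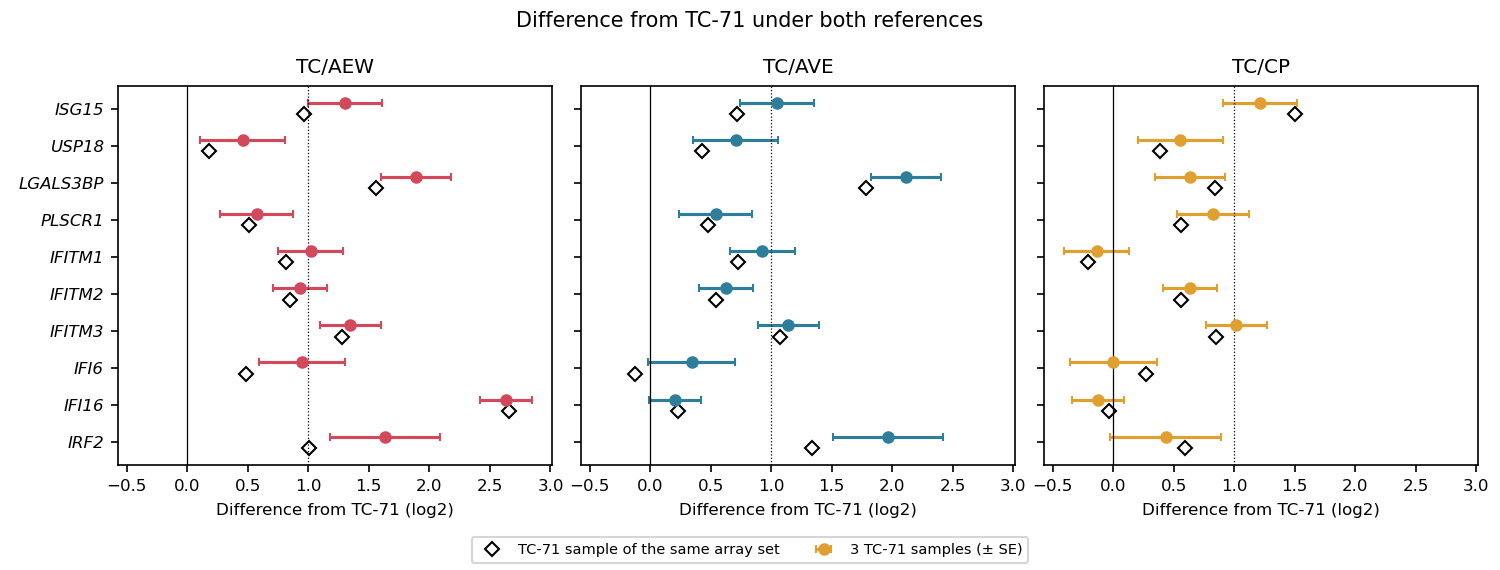
Log2 difference from TC-71 of 10 genes in each line, against the mean of 3 TC-71 samples (filled circles, bars are the moderated standard error) and against the single TC-71 sample of the line's own array set (open diamonds, no error); the dotted line marks a 2-fold difference. ISG15, IFITM2, IFITM3, LGALS3BP and PLSCR1 stay right of 0 in all 3 lines under both references. Their line arrays all lie above every TC-71 array, so this is no further check. IFI6 changes side in TC/AVE.

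Further pathway genes were taken from a list of 80, of which 74 were read, to place the members. Of the 74, 47 passed the filter and were tested, and none of these passed limma's threshold in any comparison. In the lines in common 8 were higher and 1 lower at an unadjusted p under 0.05, beside 5.14% and 3.25% of the genes tested. The 8 include IFIH1, which read under 5 in every TC-71 sample. It passed the filter only through the lines where it is high, so its p-value supports nothing. Of 33 other induced genes 4 were at least 2-fold higher in common, and of 15 sensors and adaptors 1, which was IFIH1. Of 17 ligands and other receptors and 9 factors and negative regulators 0 were so. Among all genes read the share was 0.779%. The largest differences in common were those of IFIT2, which binds viral RNA (2.40 ± 0.82), TRIM14, an adaptor of the MAVS pathway (2.07 ± 0.34), IFIT1 (1.88 ± 0.55) and IFIT3 (1.83 ± 0.73). IFIT2 stood at 5.66 ± 0.41 (SD, n = 3) in TC-71 with 8.15, 6.18 and 9.84 in the 3 lines, so TC/CP was the highest line there, whereas LGALS3BP and IFITM1 were lowest in TC/CP among the lines. The 12 interferon genes read, types I, II and III, lay between 2.79 and 5.33 on all arrays, and 11 of them never reached 5. IL10RB, a chain of the receptor for type III interferon, read 6.57, 7.18 and 6.80 in TC-71 and between 7.41 and 7.93 in the lines.

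Markers of other cells were read in the same samples. The mean of 13 blood and immune markers was 4.68 to 4.85 in the TC-71 samples against 4.78, 4.80 and 4.73 in the 3 lines, and 6 of the 13 stayed under 5 on every array, among them PTPRC (CD45) and CLEC4C of plasmacytoid dendritic cells. The mean of 4 fibroblast markers was 5.68 to 6.46 in TC-71 and 7.26, 6.24 and 6.12 in the lines. Among them LUM, which encodes a matrix proteoglycan, read 8.49 and 8.24 in TC/AEW against 3.55, 6.51 and 5.61 in TC-71. In TC/AVE, LUM read 3.59 and 3.96, close to the lowest TC-71 sample, while DCN, another matrix proteoglycan, was higher by 1.02 with both arrays above TC-71, so they offset each other in the mean. DCN lay below TC-71 in TC/CP (-0.83). THY1, a surface glycoprotein, lay above TC-71 in all 3 lines, by 0.31, 0.66 and 0.41. In TC/AEW all 4 of these markers lay above TC-71. The part of these markers in the results was not tested. Of 7 Ewing sarcoma markers read, CD99 stood between 12.82 and 13.00 and STEAP1 between 11.69 and 12.47 on all arrays. CD99 lay above TC-71 in each line, by 0.12, 0.17 and 0.11, while LIPI was lower in each line. STEAP1 lay above TC-71 in TC/AVE (0.26) and below it in TC/CP (-0.43). In TC/CP NKX2-2 lay below TC-71 (-0.48) and FLI1 above it (0.71). CCK lay above TC-71 in TC/AEW (0.48), and KCNAB3 overlapped TC-71 in every line. Array medians lay between 5.39 and 5.45.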

How the data were processed

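The authors deposited log2 expression values, for which the submitters' processing notes list RMA and affy. Their versions are not given here. RNA was TRIzol-extracted and 2 µg labelled with biotin, per the labels. Of 54675 probe sets, 62 controls were left out, and 41091 of the rest carried 1 gene symbol in the platform annotation, 1801 several and 11721 none. Each gene took its single-symbol probe set with the highest mean. Tests used genes with at least 2 arrays at 5 or more, 14172 in all, and counts and medians used all genes read. Technical arrays were averaged to 6 samples. Two-sided tests came from limma 3.58.1 (R 4.3.3), adjusted by Benjamini-Hochberg over all genes tested, with a 2-group fit (lines against TC-71, 4 residual and 3.06 prior degrees of freedom) and a 4-group fit (2 and 3.01). The code was tested on simulated data. The labels do not say that the TC-71 samples were separate cultures. In the 4-group fit p-values reflect the spread of these samples alone, which may be technical. In the 2-group fit they also reflect the spread among the 3 lines. The number of arrays limits precision. Receptors, kinases and factors were all named, and effectors where at least 2-fold from TC-71 in a line with a level of 5 or more. From the other pathway genes, the 4 with the largest difference in common were named. All other genes named were chosen after their values were seen. The members and lists were chosen with earlier results of these data known. Alternatives changed the filter, probe set choice, scaling, samples, block and variance model.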

Additional observations from a re-analysis of the deposited data

Results flagged for a closer look

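In 6 members the 2 arrays of a line lay above all TC-71 arrays while those of another line lay below them, which is 13.3% of the 45 and compares with 6.16% of all genes read and 7.85% of those that passed the filter. TYK2 differed from TC-71 by 0.36 in TC/AVE and -0.26 in TC/CP on the log2 scale. DTX3L, near background, differed by 0.83 in TC/AEW and -0.39 in TC/AVE. OASL differed by 0.25 in TC/AEW and 0.14 in TC/CP against -0.031 in TC/AVE, and its TC-71 samples spanned an SD of 0.01. EIF2AK2 differed by -0.074 in TC/AEW and 0.12 in TC/AVE. Its other probe sets differed by -0.14 and 0.05 in TC/AEW and by 0.32 and 0.62 in TC/AVE. IFI16 differed by at least 2.63 in TC/AEW and by -0.12 in TC/CP, where it and TC-71 were both near background, so the lower side is no measured difference. TRIM25 differed by 0.47 in TC/AEW and -0.088 in TC/AVE. Its other probe set differed by 0.33 in TC/AEW, 0.088 in TC/AVE and -0.46 in TC/CP. Each line is 1 sample, and the difference between TC/AEW and a single antibody line was not tested. The difference between TC/AVE and TC/CP did not pass limma's threshold for TYK2 (adjusted p = 0.953) or OASL (adjusted p = 1.00).

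A probe set that carries the symbols IFITM2 and IFITM1 together, and that no comparison above used, stood 1.19 above TC-71 in TC/AEW and 1.16 above it in TC/AVE, with both arrays of each line above all TC-71 arrays. In TC/CP it read 9.46 and 9.24 against 8.98, 9.57 and 9.16 in TC-71.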

How the results depend on the processing

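No member passed the threshold in any comparison under any setting with technical arrays averaged; with trend and robust variances the lowest adjusted p of a member was 0.122 in common, 0.205 in TC/AEW, 0.163 in TC/AVE and 0.466 in TC/CP. Taking 9 arrays as samples, which counts technical arrays as biological, 3 members passed in common, 10 in TC/AEW, 6 in TC/AVE, 5 in TC/CP, 2 in TC/AEW against the antibody lines and 4 in TC/AVE against TC/CP, beside 1.68%, 3.85%, 13.2%, 7.15%, 2.03% and 13.4% of the 14172 genes tested (30 members were tested). With a replicate block added to the 9 arrays the counts were 2, 6, 7, 4, 1 and 3, beside 0.261%, 2.48%, 8.76%, 8.75%, 1.58% and 12.9% of the genes tested; TC-71 samples and technical arrays share only a number, and no pairing is implied.

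Members at least 2-fold higher in TC/CP were 2, but 1 with quantile normalization repeated and 1 against the TC-71 sample of its own array set; leaving out an array gave 1 to 2, with 1 without TC-71 sample 1. Leaving out an array gave 1 to 2 such members in TC/AEW against the antibody lines, with 2 without the first TC/AEW array, and 0 to 1 at least 2-fold lower in TC/AVE than in TC/CP, with 1 without the second TC/CP array. With array set as a block 0 members were at least 2-fold higher in TC/AVE than in TC/CP. Members with all line arrays above TC-71 were 7, beside 3.96% of all genes read. They were from 7 to 10 when 1 array was left out, and 11 without the line TC/CP. With fewer arrays such a count can only stay or rise for any set of genes. The share over all genes is not given for these settings, so the rise is not read as a result about the members. No named difference of 2-fold or more changed direction under any setting. Signal near background limits 15 of the 45 genes.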
